A study of Mus musculus with 24 samples.

Results

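Respiratory complex I, the enzyme that passes electrons from NADH to ubiquinone, was followed through its nuclear genes in mouse prefrontal cortex. Its members were the genes of the deposited table whose GENCODE M21 symbol begins with Nduf and whose mean over the libraries was at least 10. The annotation holds 51 such symbols, of which 48 were in the table and all 48 had that mean, out of 18240 genes in the table and 16825 tested. The other 3, Ndufab1-ps, Ndufs6b and Ndufa11b, are processed pseudogenes that were not analysed here. By the known structure of the enzyme the members were 10 subunits of the N module, 6 of the Q module, 9 of the proximal pump module and 11 of the distal pump module, with Ndufab1, 8 Ndufaf assembly factors, the pair Ndufa4 and Ndufa4l2, and Ndufb4c, a processed pseudogene.

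The mice, of strain C57BL/6J, were of both sexes and were sampled at postnatal day 40. They were wild type (WT) or heterozygous (HT) for Dyrk1a+/I48X, an allele of the kinase gene Dyrk1a. The 24 libraries formed 4 arms of 6, each with 3 from females and 3 from males: WT on vehicle, HT on vehicle, HT on fluoxetine, a serotonin reuptake inhibitor, and HT on lithium, a mood stabiliser. All drug-treated mice used here were HT. The sources used here give neither doses nor the length of treatment, and the labels do not say that each library came from its own animal, so p-values measure the spread between these libraries, which may in part be technical.

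Complex I is L-shaped. The N module at the tip of its matrix arm binds NADH and takes up its electrons, the Q module hands them through iron-sulfur clusters to ubiquinone, and the pump modules in the inner membrane move protons. The core of the matrix arm is nuclear-encoded and the core of the membrane arm is encoded by mitochondrial DNA, while small accessory subunits and a set of assembly factors, all nuclear, surround, stabilise and build both. In neurons the enzyme is the main entry of electrons from NADH into the respiratory chain, which supplies most of the ATP used for ion pumping and synaptic transmission.

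Recovered depth was between 24133344 and 35940460 reads. The excitatory cortical markers Slc17a7, Tbr1, Neurod6 and Camk2a were present in every library, with Neurod6 at 917 or more normalised reads. Libraries labelled HT did not have less Dyrk1a, with 2200 ± 90.8 (SD, n = 6) in WT vehicle and 2355 ± 61.2 in HT vehicle. Libraries differed in tissue content. The 6 with most olfactory bulb transcripts were HT fluoxetine female 1 and male 1, HT lithium male 1, HT vehicle female 2 and male 3, and WT vehicle female 2. The 4 with most Drd2 (striatum) or Ttr (choroid plexus) were HT fluoxetine female 2, HT vehicle female 1 and male 1, and WT vehicle female 1. All 6 lithium libraries and HT fluoxetine female 3 carry the batch label P40_L2 and the other 17 carry P40_L1, so lithium and batch cannot be told apart.

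Levels of different genes were compared as normalised reads per kilobase of the principal transcript, averaged over the 24 libraries. The typical subunit stood above the assembly factors. The median level per kilobase was 1768 in the N module, 1730 in the Q module, 2258 in the proximal and 1948 in the distal pump module, against 360 for the Ndufaf genes, which ranged from 97.7 to 493. Among the subunits Ndufb2 (231), Ndufb4 (325), Ndufab1 (430) and Ndufc1 (443) lay within that range. These levels depend on the transcript whose length is used. Ndufb2 was taken at 4371 bases and Ndufab1 at 3479, while equally ranked principal transcripts had 455 and 1416. With the shorter ones both would lie above that range. Ndufa4, a small membrane protein first described in complex I and now counted as a subunit of cytochrome c oxidase, was the highest member at 6654. Its paralogue Ndufa4l2, known as a hypoxia-induced gene, was the lowest at 62.4. Reads of Ndufb4 and the pseudogene Ndufb4c may be hard to tell apart, which was not tested. Only 19.6% to 20.3% of their summed reads per arm were assigned to Ndufb4. Both are therefore uncertain on their own, though each is counted as a member. Their sum was 1576 ± 17.7 (SD, n = 6) in WT vehicle, 1618 ± 137 in HT vehicle, 1460 ± 69.7 in HT fluoxetine and 1634 ± 70.7 in HT lithium.

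The fluoxetine arm held the lowest levels of most complex I genes. Against HT vehicle, 44 of 48 members had a log2 difference below 0, where 50.5% of all genes tested did. Their median log2 difference was -0.11, beside a median of 0.00 over all genes. Lower values with an unadjusted limma p under 0.05 were found for 20 members, or 41.7%, against 3.05% of all genes. After Benjamini-Hochberg adjustment over all 16825 genes, limma called 1 member, Ndufs3, beside 0.0119% of all genes. The only other gene called was P4ha1. In 5 members (Ndufs3, Ndufa4, Ndufb6, Ndufb1-ps and Ndufa3) every fluoxetine library lay below every HT vehicle library, as for 0.22% of all genes. DESeq2 on the recovered reads called 4 of these 5, all but Ndufa3, beside 0.0951% of all genes. Over the 27 alternatives tried, the median ran from -0.15 to -0.07, the value nearest 0 coming from leaving out the 4 libraries highest in Drd2 or Ttr (HT fluoxetine female 2, HT vehicle female 1, HT vehicle male 1 and WT vehicle female 1), when 38 of 48 members were lower. These are bulk samples, in which fewer cells of a type and less RNA per cell cannot be told apart.

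**Figure D1:**
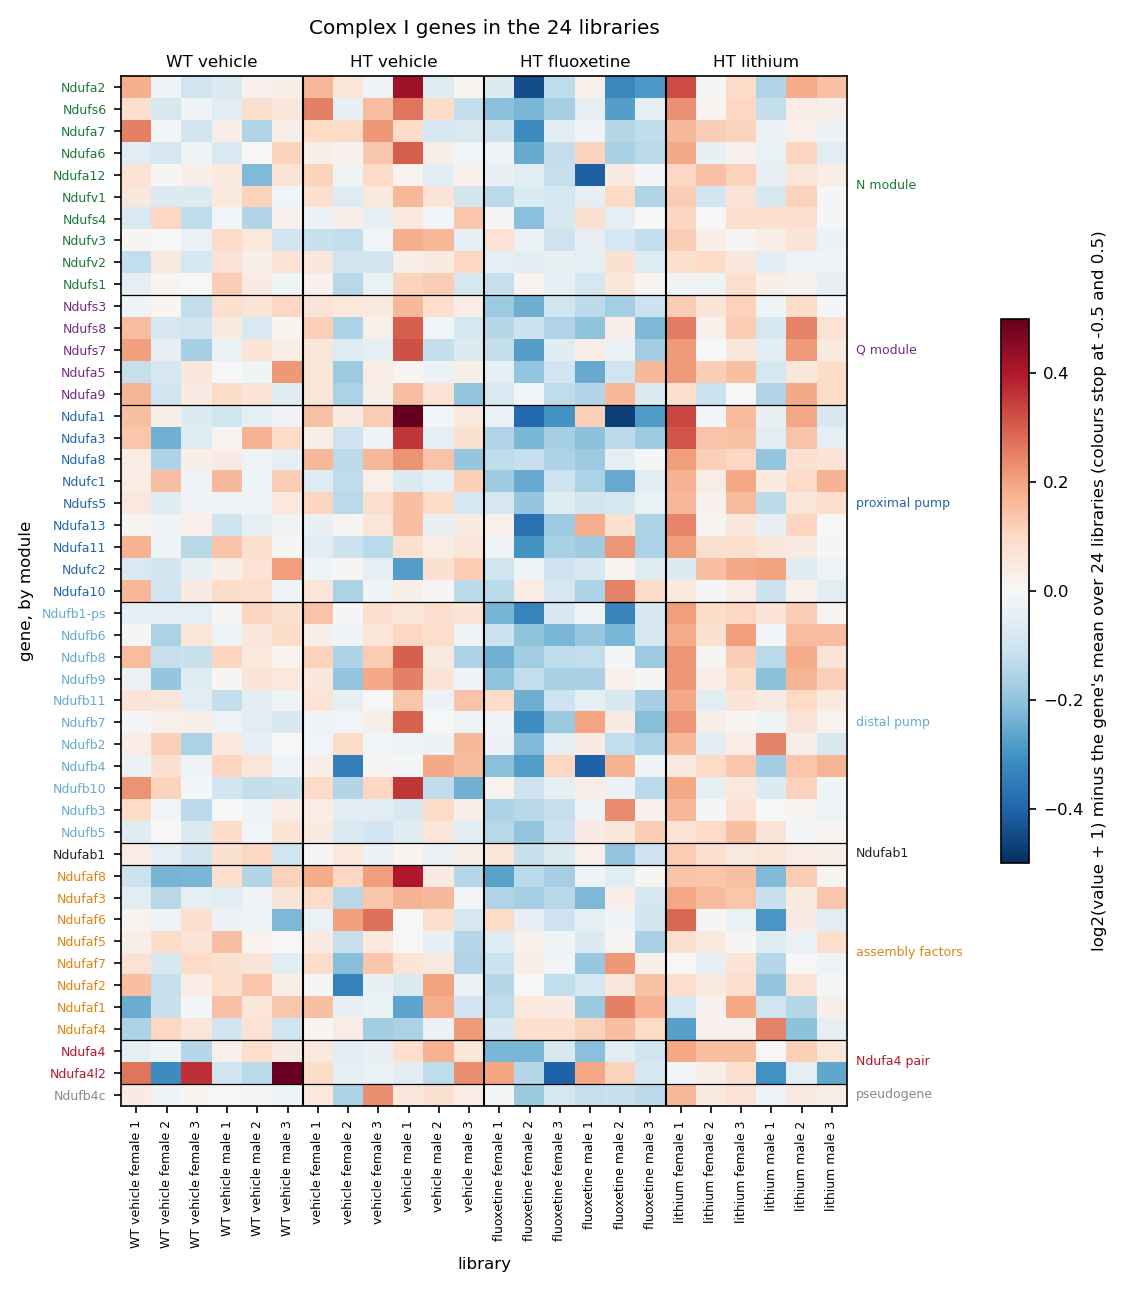
Each row is 1 of 47 genes, grouped by module, and each column 1 of the 24 libraries, grouped by arm. Colour gives the log2(value + 1) minus the gene's mean over all libraries, with colours stopping at -0.5 and 0.5. Blue, for values below the mean, fills most of the subunit rows of the 6 HT fluoxetine columns, while the assembly factor rows are mixed.

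Ndufs3 (ENSMUSG00000005510, chr2:90894634-90904827 on GRCm38, minus strand) encodes a core subunit of the Q module that is present from the earliest step of assembly. Its 6 fluoxetine libraries had a lowest, median and highest normalised read count of 1863, 1988 and 2058. Those of HT vehicle stood at 2266, 2295 and 2467, those of WT vehicle at 2026, 2264 and 2367, and those of HT lithium at 2171, 2328 and 2406. All fluoxetine values were thus below both other HT arms, and they overlapped WT vehicle only at its lowest library. Against HT vehicle Ndufs3 fell by 0.23 on the log2 scale (SE 0.035, limma adjusted p = 0.0251), lower in 6 of 6 libraries than the vehicle mean. Its log2 difference was between -0.25 and -0.20 in all 27 alternatives, but the call held in 12 of them. Leaving out any single library of the pair of arms ended the call, with adjusted p up to 0.136, except for HT fluoxetine female 3 and HT vehicle male 3. Among the 17 libraries of batch P40_L1 the log2 difference was -0.25, with a limma adjusted p of 0.122.

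The other 4 members whose arms did not overlap had limma adjusted p-values above 0.05. Ndufa4 (ENSMUSG00000029632, chr6:11900292-11907497) ranged from 3448 to 3900 normalised reads with fluoxetine (median 3637) and from 3903 to 4568 in HT vehicle (median 4208). Its log2 difference was -0.20 (SE 0.040, limma adjusted p = 0.255), and the gap between the arms was narrow. Ndufb6 (ENSMUSG00000071014, chr4:40270591-40279421), an accessory subunit of the distal pump, ranged from 799 to 886 (median 817) against 919 to 1004 (median 966), with a log2 difference of -0.21 (SE 0.048, limma adjusted p = 0.347). Ndufb1-ps was counted here as the mouse counterpart of the distal pump subunit NDUFB1, although GENCODE M21 lists it as a bidirectional-promoter long non-coding RNA. Its values were 832 to 1030 (median 941) against 1044 to 1158 (median 1106), a log2 difference of -0.25 (SE 0.052, limma adjusted p = 0.255). Ndufa3, an accessory subunit of the proximal pump, ranged from 1142 to 1224 (median 1188) with fluoxetine, the tightest of these arms, and from 1248 to 1718 (median 1345) in HT vehicle. Its log2 difference was -0.23 (SE 0.068, limma adjusted p = 0.596). DESeq2 gave adjusted p-values of 1.58e-07 for Ndufs3, 0.00201 for Ndufa4, 0.00945 for Ndufb1-ps, 0.0378 for Ndufb6 and 0.289 for Ndufa3. edgeR's quasi-likelihood test called Ndufs3 alone among the members, at an adjusted p of 0.0208, and 2 of all 16825 genes.

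**Figure D2:**
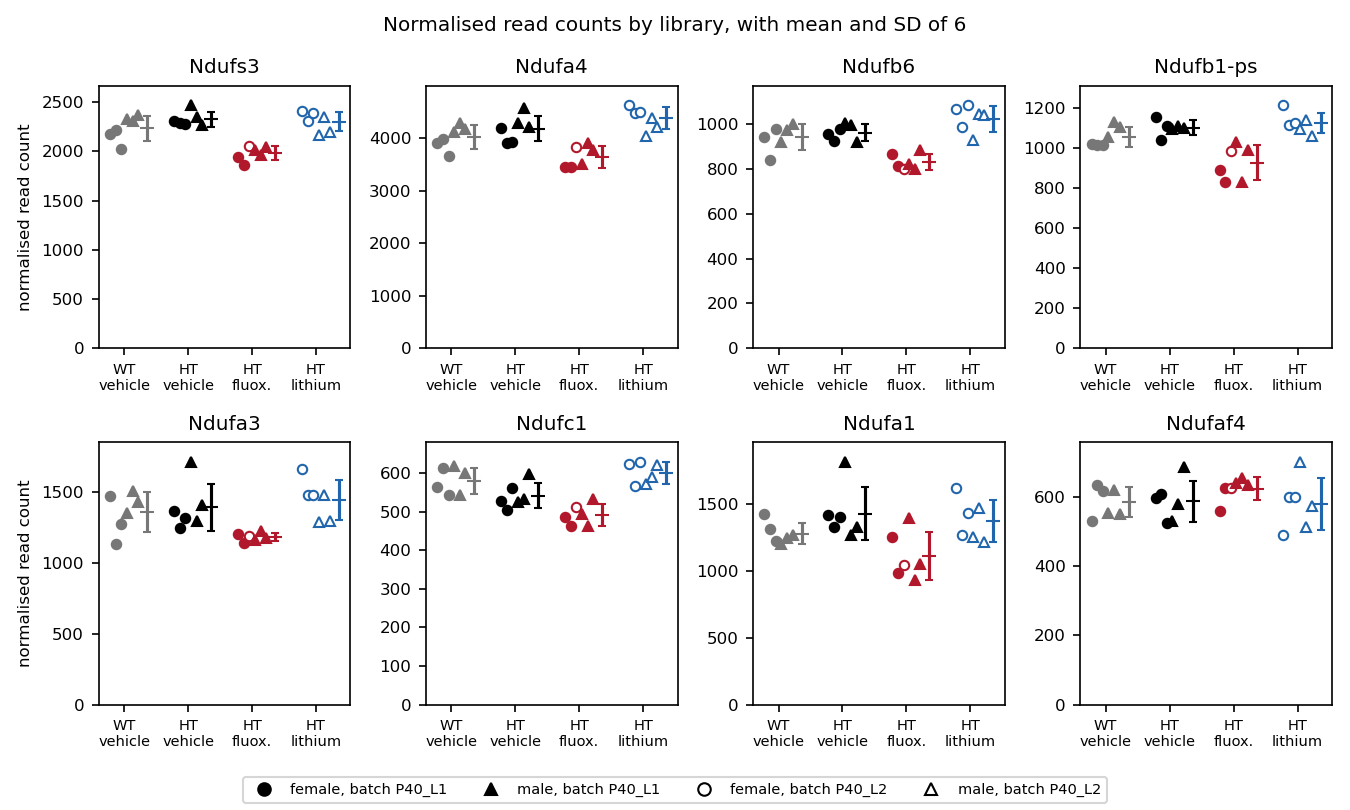
Normalised read counts of 8 members in each library of the 4 arms, on axes that start at 0, with circles for females, triangles for males, open symbols for batch P40_L2 and bars for the mean and SD of 6. For Ndufs3, Ndufa4, Ndufb6, Ndufb1-ps and Ndufa3 the HT fluoxetine points lie below all HT vehicle points, while for Ndufa1 and Ndufaf4 the arms overlap.

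In the N module, where NADH is bound, all 10 subunits were lower with fluoxetine than in HT vehicle, with a median log2 difference of -0.11 and 4 at an unadjusted p under 0.05. The flavin-carrying Ndufv1 stood at 3395 ± 216 (SD, n = 6) against 3640 ± 243, a log2 difference of -0.10. The iron-sulfur subunits Ndufv2 and Ndufs1 differed least, by -0.03 and -0.03, against standard errors of 0.038 and 0.045. The 2 subunits of smallest p in the module were accessory ones. Ndufs6, a zinc-binding subunit, ranged from 960 to 1128 (median 1022) against 1071 to 1400 (median 1266), a log2 difference of -0.26 (SE 0.067, limma adjusted p = 0.530). Ndufa2 ranged from 774 to 1071 (median 912) against 1010 to 1411 (median 1080), a log2 difference of -0.30 (SE 0.096, limma adjusted p = 0.615). In both genes the arms overlapped, and all 6 fluoxetine libraries were below the HT vehicle mean.

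In the Q module all 6 subunits were lower, with a median log2 difference of -0.10 and 2 at an unadjusted p under 0.05. Beside Ndufs3, the second was Ndufs8, an iron-sulfur subunit, at 1558 ± 100 (SD, n = 6) against 1752 ± 201 (log2 difference -0.16, SE 0.076, limma adjusted p = 0.857). Ndufs7, which carries the last iron-sulfur cluster before ubiquinone, had a log2 difference of -0.12 (SE 0.078). Over the 7 nuclear core subunits of both matrix modules the median was -0.10 with 7 of 7 lower, and over the 30 accessory subunits it was -0.13 with 29 of 30 lower. Core and accessory subunits therefore had similar medians, and the difference between them was not tested.

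In the proximal pump module 8 of 9 subunits were lower (median -0.13, 5 at an unadjusted p under 0.05), and in the distal pump module 11 of 11 (median -0.13, 5 at an unadjusted p under 0.05). The most negative value of any member was that of Ndufa1, an X-linked subunit of a single transmembrane helix needed for assembly. Ndufa1 ranged from 929 to 1395 (median 1049) with fluoxetine and from 1272 to 1818 (median 1366) in HT vehicle, with a log2 difference of -0.37 (SE 0.10, limma adjusted p = 0.546). The arms overlapped, and HT vehicle male 1, one of the Drd2-high libraries, held the highest value. The other X-linked member, Ndufb11, had a log2 difference of -0.14 (SE 0.054). Ndufa10, a subunit with a nucleoside kinase fold, was the one module subunit not lower, at 0.04 (SE 0.063).

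Of the 8 Ndufaf genes, the assembly factors, 5 were lower and 3 higher with fluoxetine, with a median log2 difference of -0.01 and 2 of the lower at an unadjusted p under 0.05. The difference between these genes and the subunits was not tested. Ndufaf3, which acts in building the Q module, stood at 596 ± 37.3 (SD, n = 6) against 682 ± 56.3 (log2 difference -0.19, SE 0.058, limma adjusted p = 0.596). Ndufaf8, the partner of Ndufaf5, stood at 173 ± 12.2 against 205 ± 25.9 (log2 difference -0.24, SE 0.081, limma adjusted p = 0.679). Ndufaf4, which binds Ndufaf3, was the highest of all members in this comparison, at 622 ± 33.3 against 586 ± 58.8 (log2 difference 0.09, SE 0.082). Over the 24 libraries Ndufaf4 also ran against the others, with a Pearson r of -0.66 to the mean of the other members, whereas the highest values were 0.90 for Ndufb8 and Ndufs5. These r values are descriptions over libraries that share tissue content and arm. Ndufab1, the acyl carrier protein that is also part of mitochondrial fatty acid synthesis, had a log2 difference of -0.07 (SE 0.045), and Ndufa4l2 one of -0.03 (SE 0.14). The pseudogene Ndufb4c had one of -0.16 (SE 0.049, limma adjusted p = 0.615).

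**Figure D3:**
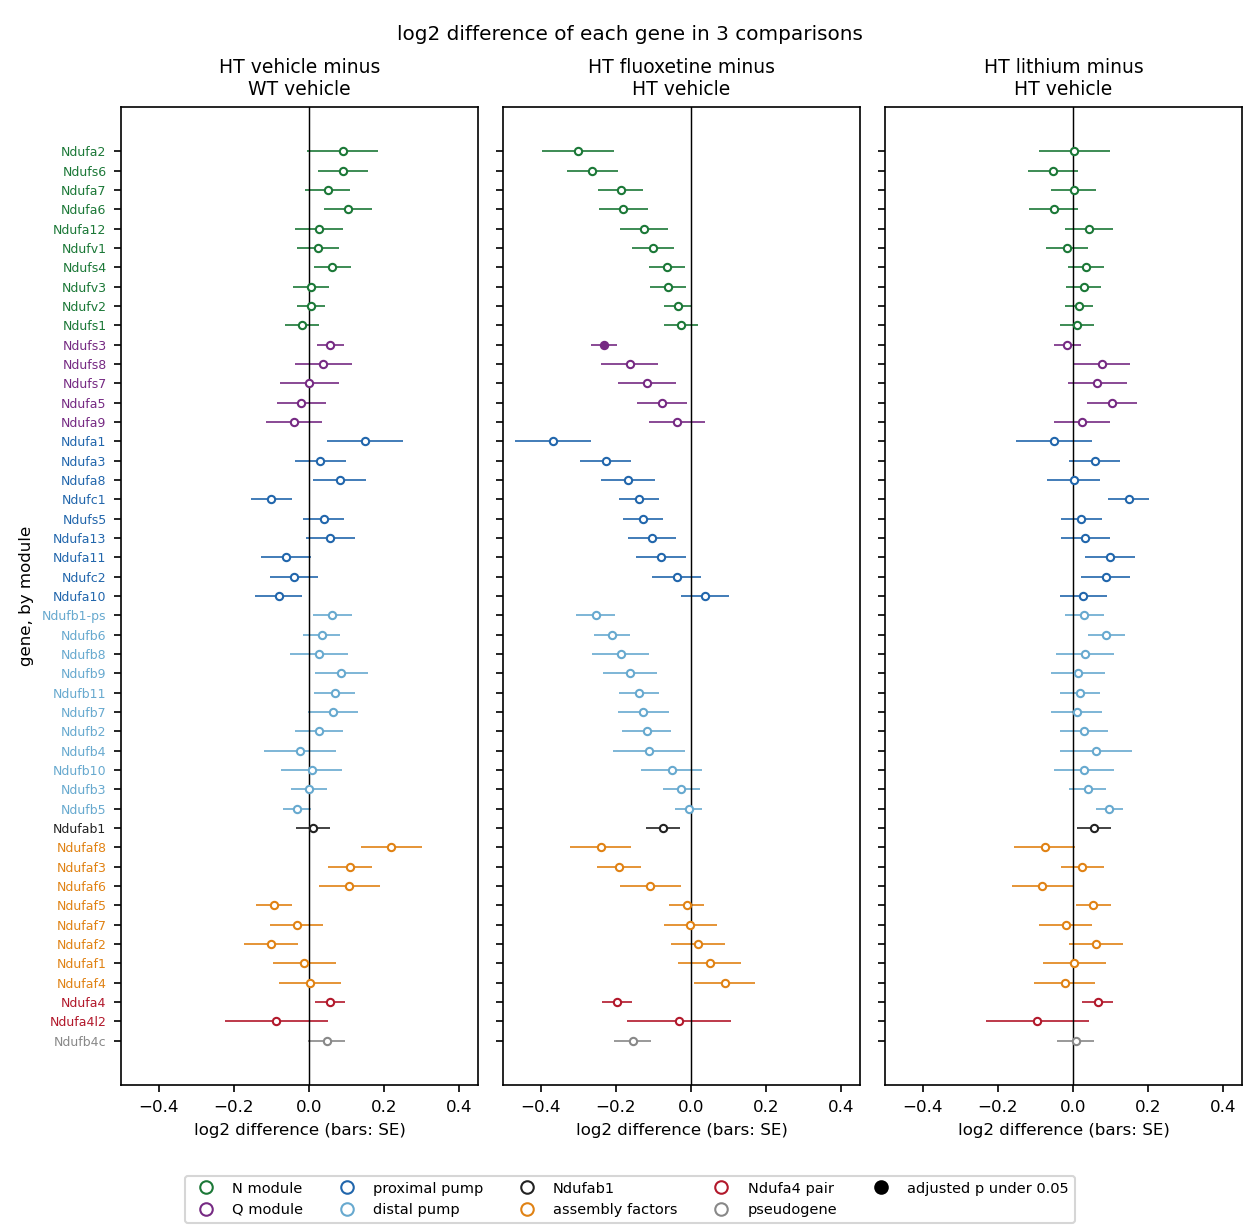
Log2 difference with its standard error for each of 47 genes in 3 comparisons, coloured by module, with filled points for a limma adjusted p under 0.05. In the middle panel 43 of 47 points lie below 0 and Ndufs3 is the one filled point, while in the outer panels most points lie slightly above 0.

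Promoters are shown for 4 of the 5 members whose fluoxetine and HT vehicle libraries did not overlap, a choice made from these same values. The window of the fifth, Ndufb1-ps, held no match to the motifs searched and is not shown. Each shown is the RefSeq promoter on GRCm38.p6, from 250 bases before to 50 bases after the start, on the gene's strand, with matches to the searched motifs in capitals. Of the 48 members 41 had such an entry. Ndufa2, Ndufb9, Ndufs1, Ndufa4l2, Ndufaf6 and Ndufb4c were among those without.
Ndufs3, chr2:90904672-90904971, minus strand: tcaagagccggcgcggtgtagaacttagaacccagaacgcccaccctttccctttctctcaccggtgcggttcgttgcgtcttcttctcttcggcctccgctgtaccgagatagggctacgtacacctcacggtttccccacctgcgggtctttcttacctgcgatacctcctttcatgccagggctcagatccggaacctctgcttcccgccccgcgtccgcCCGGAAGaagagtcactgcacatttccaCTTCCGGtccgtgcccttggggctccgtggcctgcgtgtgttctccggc
Ndufb6, chr4:40279372-40279671, minus strand: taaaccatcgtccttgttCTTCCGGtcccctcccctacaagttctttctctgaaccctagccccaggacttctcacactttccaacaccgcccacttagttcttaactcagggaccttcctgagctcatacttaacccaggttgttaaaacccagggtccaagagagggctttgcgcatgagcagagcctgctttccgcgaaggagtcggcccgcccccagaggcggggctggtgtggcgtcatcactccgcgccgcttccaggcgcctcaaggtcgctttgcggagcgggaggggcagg
Ndufa3, chr7:3617123-3617422, plus strand: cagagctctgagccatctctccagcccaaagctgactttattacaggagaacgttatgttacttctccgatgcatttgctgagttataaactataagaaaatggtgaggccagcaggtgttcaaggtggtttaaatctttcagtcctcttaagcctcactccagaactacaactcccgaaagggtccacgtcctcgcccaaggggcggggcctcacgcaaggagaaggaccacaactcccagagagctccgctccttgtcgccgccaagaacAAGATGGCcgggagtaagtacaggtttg
Ndufa4, chr6:11907401-11907700, minus strand: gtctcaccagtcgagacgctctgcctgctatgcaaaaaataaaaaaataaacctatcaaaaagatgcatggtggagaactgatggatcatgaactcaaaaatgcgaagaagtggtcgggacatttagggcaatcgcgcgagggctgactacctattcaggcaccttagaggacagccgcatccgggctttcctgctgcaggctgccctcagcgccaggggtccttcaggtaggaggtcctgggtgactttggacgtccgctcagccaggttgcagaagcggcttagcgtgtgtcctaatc
The searched motifs, on both strands, were CCGGAAG for the ETS family to which Gabpa belongs, GCATGCGC for Nrf1 and AAGATGGC for Yy1, factors known to act on nuclear genes of mitochondria, of which an ETS and a Yy1 match can share 3 letters. The Ndufs3 promoter held 2 ETS matches, one on each strand, Ndufb6 held 1 ETS match, Ndufa3 held 1 Yy1 match, and the Ndufa4 window held none. Of the 41 members 14.6% held the ETS motif, 12.2% the Nrf1 motif and 19.5% the Yy1 motif, against 9.93%, 3.05% and 3.19% of 27025 genes with a promoter entry. The 2 sets are unlike, as the 27025 outnumber the 18240 genes of the table and so include genes outside it. Shares among the genes tested were not taken. The 8 members with the Yy1 match were Ndufa3, Ndufa9, Ndufaf8, Ndufb8, Ndufc1, Ndufs4, Ndufs6 and Ndufs7, and in Ndufaf8, the one member with both, the ETS and Yy1 matches lay apart. A match is a description of these letters and not a measured site.

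Of the 5 comparisons between arms made here, that of HT fluoxetine with HT lithium had the median farthest from 0. In it 43 of 48 members had a log2 difference below 0 (49.0% of all genes), with a median of -0.15, and 25 were lower at an unadjusted p under 0.05 (3.2% of all genes). Short coding genes outside the family were also mostly lower in it, as given with transcript length below. limma called 3 members, Ndufs3, Ndufa4 and Ndufb6, beside 0.0238% of all genes, and the only other gene called was Cops9. Ndufs3 was lower by a log2 difference of -0.22 (SE 0.035), Ndufa4 of -0.26 (SE 0.040) and Ndufb6 of -0.30 (SE 0.048), each with a limma adjusted p of 0.0395 and lower in 6 of 6 libraries than the lithium mean. Ndufb6 stood at 831 ± 36.8 (SD, n = 6) with fluoxetine and 1024 ± 57.7 with lithium. Ndufa4 stood at 3650 ± 207 and 4376 ± 210. The arms did not overlap for 6 members (0.232% of all genes), these 3 with Ndufa3, Ndufb1-ps and Ndufc1, an accessory subunit of the proximal pump, and these were the 6 members that DESeq2 called (0.178% of all genes). Ndufc1 ranged from 462 to 532 (median 490) with fluoxetine and from 565 to 629 (median 605) with lithium, a log2 difference of -0.29 (SE 0.054, limma adjusted p = 0.0795).

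Batch differs between these arms. HT fluoxetine female 3, the one fluoxetine library of batch P40_L2, was below the range of the lithium libraries for 27 members and within it for 21, and below the lithium median for 46 of 48. It was within the range of the other 5 fluoxetine libraries for 43 members. With batch as a term in the fit, where the comparison rests on that library, the median log2 difference was -0.14 and limma called 0 members. The log2 differences of Ndufs3, Ndufa4 and Ndufb6 were then -0.12, -0.14 and -0.36. Each of the 3 calls was lost on leaving out most single libraries. Ndufb6 was called without HT lithium male 1 only, Ndufs3 without that library or HT fluoxetine female 3, and Ndufa4 without either of these or HT fluoxetine male 2, with adjusted p up to 0.152 without another library.

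Against WT vehicle, 46 of 48 members were lower with fluoxetine (50.8% of all genes), with a median log2 difference of -0.08, and 13 had an unadjusted p under 0.05 (1.92% of all genes). limma and edgeR called 0 members, beside 0.0% of all genes for limma, and DESeq2 called Ndufs3 and Ndufc1 (0.107% of all genes). Ndufc1 was the one member whose arms did not overlap (0.0773% of all genes), at 543 to 617 (median 582) in WT vehicle, a log2 difference of -0.24 (SE 0.054, limma adjusted p = 0.324). Ndufs3 had a log2 difference of -0.17 (SE 0.035, limma adjusted p = 0.310). The comparisons of fluoxetine with HT vehicle, HT lithium and WT vehicle share the fluoxetine libraries, so their similar values are not independent.

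The Dyrk1a genotype gave small differences without a call. HT vehicle was below WT vehicle for 14 of 48 members and above it for 34 (51.3% of all genes were below), with a median log2 difference of 0.03. limma called 0 members (0.0% of all genes), as did edgeR and DESeq2, and 1 member had an unadjusted p under 0.05 (2.7% of all genes). That member was Ndufaf8, at 176 ± 18.9 (SD, n = 6) in WT vehicle and 205 ± 25.9 in HT vehicle, a log2 difference of 0.22 (SE 0.081). The lowest value was that of Ndufaf2, a late assembly factor, at -0.10 (SE 0.072), and among the core subunits the values ran from -0.02 for Ndufs1 to 0.06 for Ndufs3. Leaving out the 4 libraries highest in Drd2 or Ttr brought the median to 0.01.

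Lithium against HT vehicle gave differences of similar size. Of 48 members 11 were lower and 37 higher (50.5% of all genes were lower), with a median log2 difference of 0.03. limma called 0 members (0.0119% of all genes), as did edgeR and DESeq2, and 2 had an unadjusted p under 0.05 (2.75% of all genes), Ndufc1 at 0.15 (SE 0.054) and Ndufb5, a distal pump subunit, at 0.10 (SE 0.036). All 11 distal pump subunits had a positive value, with a median of 0.03. Short coding genes outside the family leaned the same way, as given with transcript length below. Without the 6 libraries highest in olfactory bulb genes the median of the members was -0.01, with 25 of 48 lower. With batch as a term, which rests on HT fluoxetine female 3 alone, the median was 0.01. Without the 4 libraries highest in Drd2 or Ttr it was 0.05, with 5 of 48 lower.

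Neither sex nor its combination with fluoxetine gave a call. limma called 0 members between males and females over the 4 arms (0.0832% of all genes), as did edgeR and DESeq2, and 2 members, Ndufb5 and Ndufaf6, had an unadjusted p under 0.05 (2.59% of all genes). The X-linked Ndufa1 and Ndufb11 had male minus female log2 differences of -0.03 and -0.01. The fluoxetine difference had a median over members of -0.12 in females, with 43 of 48 lower, and -0.10 in males, with 40 of 48 lower, from 3 libraries per arm. Tested for each gene, limma called 0 members for a difference between the sexes in the fluoxetine effect (0.0% of all genes), as did edgeR and DESeq2, and 2, Ndufb5 and Ndufv3, had an unadjusted p under 0.05 (1.07% of all genes).

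The mean log2 deviation of the 48 members from their own averages gave a level per library. It was below 0 in all 6 fluoxetine libraries, from -0.16 in female 2 to -0.02 in male 2. HT vehicle ran from -0.07 to 0.11, WT vehicle from -0.04 to 0.04 and HT lithium from -0.05 to 0.14. The lowest library of HT vehicle (female 2), of HT lithium (male 1) and of WT vehicle (female 2) was each time one rich in olfactory bulb genes, and the highest of HT vehicle (male 1) was the library with most Drd2. In HT lithium the highest library, female 1 at 0.14, had the second-highest bulb score of its arm. Of the Ttr-high libraries, HT fluoxetine female 2 was the lowest of all and HT vehicle female 1 stood at 0.06. The bulb-rich fluoxetine libraries, female 1 and male 1, stood at -0.09 and -0.07, inside the range of that arm. The fluoxetine arm had the 8 olfactory bulb markers higher than HT vehicle, 0 of 8 lower and a median log2 difference of 0.70, with summed levels of 5314 to 37822 normalised reads (median 11632) against 5518 to 28357 (median 5991). The 6 striatal markers were lower in 6 of 6, with a median of -0.45 and sums of 1978 to 6405 against 2306 to 17100. Of the 5 astrocyte markers 0 were lower, with a median of 0.16 and sums of 27423 to 39745 against 26105 to 36499. The 5 excitatory neuron markers had a median of -0.05, the 6 inhibitory ones -0.03, the 5 of mature oligodendrocytes -0.09 with 5 of 5 lower, the 5 of microglia -0.03, the 3 of endothelial cells -0.02, the 4 of choroid plexus -0.26 and the 3 of red blood cells 0.29. Against lithium, the bulb markers had a median of 0.49 with 0 of 8 lower, and those of mature oligodendrocytes -0.18 and excitatory neurons -0.13, each with 5 of 5 lower. Microglial markers had a median of 0.11 with 0 of 5 lower, inhibitory ones 0.11, astrocyte ones 0.10 and choroid plexus ones 0.30. Striatal markers had 0.05, those of red blood cells 0.06 and those of endothelial cells -0.10. For fluoxetine against HT vehicle, the median of the members was -0.15 without the 6 bulb-rich libraries and -0.11 in a fit with the bulb score added. Without the 4 libraries highest in Drd2 or Ttr it was -0.07, with 38 of 48 lower. The part of the other cell types in these values was not tested.

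Complex I transcripts are short, and their fluoxetine difference varied with transcript length. The median principal transcript had 921 bases, against 3049 for all coding genes tested, and 41.7% of members were under 800 bases against 3.0% of coding genes. The 20 members under 800 bases had a median log2 difference of -0.17 with fluoxetine, and the 421 other coding genes of that length one of -0.09, with 76.7% of them lower. At an unadjusted limma p under 0.05, 13 of these members and 15.9% of these other genes were lower. In the next range, 800 to under 1200 bases, 5 members and 9.88% of other genes were lower at that p. From 800 to under 1200 bases the medians were -0.12 for 12 members and -0.06 for 830 other genes. From 1200 to under 1600 bases they were -0.08 for 6 members and -0.03 for 1162 others. From 1600 to under 2400 bases they were -0.05 for 6 members and -0.01 for 2700 others, and from 2400 bases on -0.05 for 4 members and 0.02 for 9524 others. With these lengths the members' median was below that of other genes in each of the 5 ranges, of which the last 4 hold under 20 members each. With the shortest principal transcript of each gene it was so in the first 4 ranges, while the 2 members of 2400 bases and over had a median of 0.03 against 0.02 for the others. Both medians were lower for shorter transcripts, apart from the members' 2 longest ranges. Leaving genes of the respiratory chain and of ribosomes out of the comparison changed the median of the shortest others to -0.08. Spearman's rho between length and the fluoxetine difference was 0.58 over the 48 members and 0.18 over 14637 other coding genes, across genes that are not independent. The same rho for the genotype difference was -0.33 and -0.17, and for lithium -0.05 and -0.07. For fluoxetine against lithium it was 0.57 and 0.21. Under 800 bases, 20 of 20 members and 79.6% of the 421 other genes were lower with fluoxetine than with lithium. Their medians were -0.18 and -0.11, and 13 of these members and 25.2% of these others were lower at an unadjusted limma p under 0.05. For lithium against HT vehicle the medians under 800 bases were 0.03 for members and 0.03 for others, with 4 of 20 members and 35.2% of others lower. For genotype they were 0.04 and 0.04, with 3 of 20 members and 35.2% of others lower. The part of transcript length in the members' differences was not tested.

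**Figure D4:**
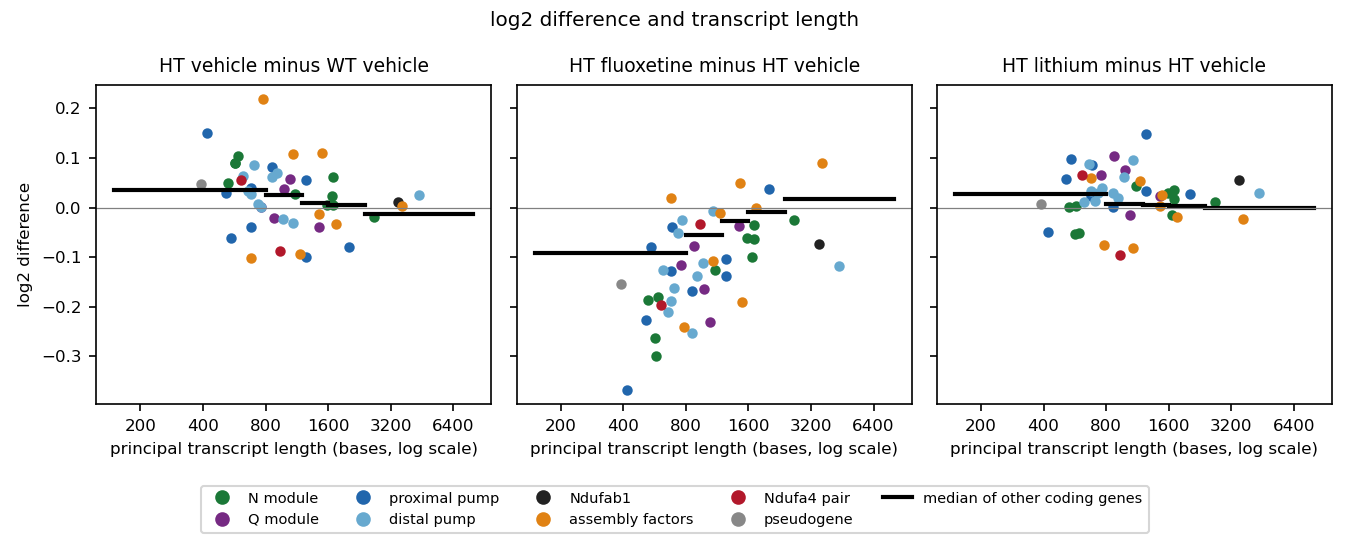
Log2 difference of 47 members against the length of its principal transcript in bases (log scale), with black lines for the median of other coding genes in 5 ranges of length. In the middle panel the members and the black lines both rise towards longer transcripts, and most members lie under the line of their range.

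By module, length ran from a median of 683 bases in the proximal and 763 in the distal pump to 1346 in the N and 1014.5 in the Q module, and the Ndufaf genes had 1308.5. In the N module Ndufa2 (572 bases) and Ndufs6 (568 bases) had the most negative values, and Ndufs1 (2661 bases) the least. Among the Ndufaf genes the order was mixed. Ndufaf8 (781 bases) had the most negative log2 difference, -0.24, and Ndufaf4 (3632 bases), the longest, the highest, 0.09. Against this order, Ndufaf2 (678 bases), the shortest, stood at 0.02 and Ndufaf3 (1487 bases) at -0.19.

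The other complexes of the chain were lower as well. With fluoxetine against HT vehicle all 9 complex III genes were lower (median -0.09, 4 at an unadjusted p under 0.05), 9 of 10 complex IV genes (median -0.15, 4), all 15 ATP synthase genes (median -0.06, 5) and all 4 complex II genes (median -0.05, 0), with 0 called by limma in these lists, beside the 0.0119% of all genes given above. The complex III subunit Uqcrq stood at 2365 ± 171 (SD, n = 6) against 2899 ± 339 (log2 difference -0.29, SE 0.073, limma adjusted p = 0.527), and the complex IV subunit Cox7b at 3041 ± 169 against 3640 ± 180 (log2 difference -0.26, SE 0.056, limma adjusted p = 0.343). Atp5e of ATP synthase had a log2 difference of -0.25 (SE 0.061). The 10 tested assembly factors outside the Ndufaf family had a median of -0.01 with 6 lower, led by Tmem126b at -0.16 (SE 0.095). The 7 mitochondrially encoded complex I subunits, which form the core of the membrane arm, had a median of 0.04 with 2 of 7 lower. They varied widely between libraries, mt-Nd3 being at 2484 ± 1533 against 3204 ± 1190, and mt-Nd2 at 89141 ± 16965 against 82560 ± 11369. Of 8 regulators of mitochondrial genes 6 were higher, with a median of 0.08, among them Gabpa at 0.21 (SE 0.10, limma adjusted p = 0.895).

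The genes outside the family whose log2 values followed the members' mean most closely over the 24 libraries were Gpx4 (Pearson r 0.91), Uqcr11 (0.90), Hint1 (0.90), Uqcrq (0.90) and Tmem160 (0.89). Their fluoxetine log2 differences ran from -0.29 for Uqcrq to -0.14 for Hint1, and 0 of the 5 was called by limma.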

How the data were processed

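Polyadenylated RNA of prefrontal cortex was sequenced with a stranded kit, per the labels' protocols. The authors deposited a table of normalised read signal per Ensembl gene. Salmon 0.11.2, R 3.6.0, DESeq2 1.19.11 and GRCm38 are named in the submitters' processing notes, without role or order, and the counting setting for strand is not given in the sources used here. The deposited values are whole multiples of 1 read in each library (100% within 0.01 of a read), so reads were recovered for the count tests and for depth. Symbols and transcript lengths came from GENCODE M21 (18227 of 18240 identifiers matched), taking the longest of the best-ranked APPRIS principal transcripts.

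The main test was limma 3.58.1 (R 4.3.3), with a trend, on log2(value + 1) of the 16825 genes whose mean reached 10. The pseudocount of 1 understates changes of low genes. All 24 libraries shared 1 fit with 8 group means, contrasts weighted the sexes equally, and p-values were Benjamini-Hochberg adjusted over all genes, with calls at 0.05. Alternatives were other pseudocounts, filters and scalings, edgeR 4.0.16 and DESeq2 1.42.0 on recovered reads, fits of the compared groups only, with a replicate block or batch term, within batch, and without single libraries or those rich in other tissue. The fit was run on simulated counts of independent genes, some of them raised in the fluoxetine arm. That run did not examine small decreases shared by many genes, tissue content or batch. Named genes were called members, the 7 core subunits, the 2 of smallest fluoxetine p per module, X-linked and unplaced members, and the extremes of 3 comparisons. Other members are named after their values were seen. Members, gene lists and tests were chosen with earlier results of these data known. Nothing pairs replicate numbers across arms (the median r of same-numbered libraries was -0.0178). Values of 1 member and 1 marker gene are not reported here individually, and that member is not drawn in the figures.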

Additional observations from a re-analysis of the deposited data

Results flagged for a closer look

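For the 23 named members, 92 groups of 6 libraries were examined for a single library far from the others, and 5 were found, where chance gives about 5%. In HT vehicle, male 1 was far above the others for Ndufa1, at 1818.3 against 1271.8 to 1422.2 normalised reads, and for Ndufa3, at 1717.6 against 1248.0 to 1413.2. That library also had the most Drd2, at 1379.18 normalised reads. In HT lithium, male 1 was low for Ndufaf2, at 290.3 against 330.8 to 354.1. In HT fluoxetine, female 1 was low for Ndufaf4, at 558.1 against 623.2 to 654.3, and male 2 was high for Ndufv2, at 2442.0 against 2217.6 to 2257.7. HT lithium male 1 and HT fluoxetine female 1 are both rich in olfactory bulb genes. The part of tissue content in these values was not tested.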

How the results depend on the processing

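For fluoxetine against HT vehicle the number of members called was 1 (Ndufs3) with limma, 4 with DESeq2, and 0 with only the groups compared, with a replicate block, within batch P40_L1, without the 6 bulb-rich libraries and without the 4 highest in Drd2 or Ttr. Leaving out single libraries gave 0 to 1. For fluoxetine against lithium it was 3 with limma, 6 with DESeq2, 5 with the bulb score as a covariate, 4 with a replicate block, 1 after quantile normalisation, 1 without the bulb-rich libraries, and 0 with only the groups compared, with a batch term and without the Drd2- or Ttr-high libraries. Leaving out single libraries gave 0 to 3. For fluoxetine against WT vehicle DESeq2 called 2 and every other alternative 0, and for the other comparisons every alternative gave 0. Over all genes DESeq2 called 16, 30 and 18 genes in these comparisons, against 2, 4 and 0 with limma. For fluoxetine against HT vehicle, the fits with only the groups compared, with a replicate block and within batch P40_L1 called 0 of all genes. So did those without the bulb-rich and without the Drd2- or Ttr-high libraries. For fluoxetine against lithium, counts over all genes are not given here for the named alternatives other than DESeq2. Their member counts therefore stand without a share. Same-numbered libraries did not deviate together, and 6 of 24 libraries correlated best with their own number, so the block is given only as an alternative. The median log2 difference stayed negative for fluoxetine in 27 alternatives (-0.15 to -0.07), against lithium in 26 (-0.18 to -0.12) and against WT in 27 (-0.10 to -0.06), and positive for genotype in 27 (0.01 to 0.05). For lithium against HT vehicle it ran from -0.01 to 0.05 over 26, and 1 changed sign (-0.01, without the bulb-rich libraries). Depth was at least 24133344 reads per library, and 6 libraries per arm limited the precision.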
